A study of Mus musculus with 8 samples.

Results

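The motile cilia genes of ependymal cells were examined in 8 RNA-seq libraries of mouse brain. The 6 genes, Foxj1, Rsph1, Dynlrb2, Ak7, Ccdc153 and Tmem212, were chosen by name and matched by symbol, and all 6 were found among the 54532 genes of the first deposited table and the 28229 genes of the second. The mice were on the C57BL/6 background and the tissue carries the label of Day 21. Both PTS + RS libraries came from mice with photothrombotic stroke of the right cortex followed by restraint stress, and both RS libraries came from mice with restraint stress alone. The 2 RGFP109 and the 2 vehicle libraries came from mice that all carried PTS + RS. RGFP109, a class I histone deacetylase inhibitor, was given under the skin at 60 mg/kg once a day, and the titles of the vehicle libraries read NaCl. The labels place both PTS + RS libraries, both RS libraries and replicate 1 of RGFP109 and of vehicle in cortex, and replicate 2 of RGFP109 and of vehicle in amygdala. No library of sham mice was among those analysed. The sources used here do not say whether a library holds 1 mouse or a pool, so the p-values measure the spread between these libraries, which may be technical. In the comparison of RGFP109 with vehicle that spread also takes in the difference between the cortex and amygdala labels.

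Ependymal cells line the brain ventricles and carry tufts of motile cilia that move cerebrospinal fluid. A motile cilium is built on an axoneme of microtubules, with dynein arms that slide the microtubules, radial spokes that pass signals from a central pair, and a nexin link that limits the sliding. The programme is switched on by Gmnc and Mcidas and then by Foxj1 together with transcription factors of the Rfx family. Cerebral cortex and amygdala hold few ependymal cells, so these transcripts were used here to judge ventricular tissue in a dissected piece. The choroid plexus, which secretes the fluid and hangs inside the ventricles, is marked by Ttr, Kl and Folr1.

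Foxj1, on chromosome 11 from 116330704 to 116335399 of GRCm38 (minus strand), encodes the forkhead transcription factor that commits a cell to motile cilia. Rsph1, on chromosome 17 from 31255019 to 31277356 (minus strand), encodes a component of the radial spoke head. Dynlrb2, on chromosome 8 from 116504974 to 116515915 (plus strand), encodes a roadblock-type dynein light chain. Ak7, on chromosome 12 from 105705976 to 105782447 (plus strand), encodes an adenylate kinase of the axoneme. Ccdc153, on chromosome 9 from 44240676 to 44247306 (plus strand), encodes a coiled-coil protein, and Tmem212, on chromosome 3 from 27866066 to 27896368 (minus strand), encodes a transmembrane protein. Both are widely used as ependymal markers. All 6 are protein-coding.

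The stretches of 100 bases below lie upstream of the 4 members that had an entry among the RefSeq promoters (GRCm38.p6), and they are shown because 3 of these genes, Ccdc153, Tmem212 and Ak7, were nearly absent together from 1 library. Each is written 5′ to 3′ on the strand of its gene. Capitals mark the letters GTTGCC, the core of the X-box bound by Rfx factors, or TGTTTAC, a forkhead site. The stretches lie at chr9:44240505-44240604 for Ccdc153, chr3:27896369-27896468 for Tmem212, chr8:116504874-116504973 for Dynlrb2 and chr12:105705831-105705930 for Ak7.
Ccdc153: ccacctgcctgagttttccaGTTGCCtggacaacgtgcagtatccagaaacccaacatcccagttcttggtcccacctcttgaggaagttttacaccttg
Tmem212: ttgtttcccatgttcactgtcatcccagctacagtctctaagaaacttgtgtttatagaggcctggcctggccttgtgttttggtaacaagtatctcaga
Dynlrb2: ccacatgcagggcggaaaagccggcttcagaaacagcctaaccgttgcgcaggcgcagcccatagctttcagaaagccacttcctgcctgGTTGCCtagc
Ak7: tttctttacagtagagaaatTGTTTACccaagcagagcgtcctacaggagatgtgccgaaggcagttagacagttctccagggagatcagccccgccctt

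The search covered both strands of windows of 300 bases, from 250 before to 50 after each RefSeq start. The GTTGCC letters began 152 bases before the start in Ccdc153 and 51 bases before it in Dynlrb2, and the forkhead letters began 131 bases before the start in Ak7. Over 32851 such windows, 12.5% held GTTGCC and 3.65% held the forkhead letters. The full X-box, an inverted repeat that contains GTTGCC, was in 0.298% of the windows and in none of the 4 shown. The window of Tmem212 held none of the 3 motifs. Only exact letters were counted, so a site with a changed letter, such as the near match to the full X-box in the Ccdc153 stretch, was missed.

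The 8 libraries held between 15902013 and 21712033 counts on genes, so that 3 counts, the limit that a count of 0 allows, correspond to between 0.140 and 0.190 CPM (counts scaled to library size). These limits, and the intervals given with single-library ratios, cover counting error only. The scaling used TMM within each table, and levels set across the 2 tables rest on it. The vehicle library of replicate 1, labelled cortex, stood apart from the others. Its 10 cortical genes summed to 553 CPM against 701 to 982 CPM in the other 7 libraries, and they did not move alike. Neurod6 and Fezf2 were lowest there, at 11.6 and 4.09 CPM against at least 50.7 and 35.2 CPM elsewhere, and Cux1 and Cux2 were highest there, at 156 and 94.2 CPM. The 10 genes of subventricular zone neuroblasts summed to 1308 CPM in it against 340 to 467 CPM in the other 7 libraries. All 10 were highest there, but by unequal amounts. Dlx1 and Sp8 stood at 293 and 125 CPM there against at most 39.4 and 2.58 CPM elsewhere. Sox11 and Tubb3 stood at 33.9 and 379 CPM there against at most 33.7 and 325 CPM elsewhere. Whether that library held ventricular wall was not tested. Both amygdala-labelled libraries stood apart as well. Their 10 striatal genes summed to 1367 and 1507 CPM, against 175 to 255 CPM in the 6 cortex-labelled libraries. Their 8 amygdala genes, at 233 and 255 CPM, lay inside the range of 148 to 304 CPM of the cortex-labelled libraries, and their 10 cortical genes were the highest of all at 982 and 888 CPM, so these lists did not set the amygdala label apart.

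All 6 motile cilia genes were detected with more than 3 counts in 7 of the 8 libraries. The exception was vehicle replicate 1, in which Ccdc153, Tmem212 and Ak7 had 1, 0 and 1 counts, while Foxj1, Rsph1 and Dynlrb2 had 179, 48 and 15. Per kilobase of transcript, the mean level over the 8 libraries ran from Foxj1 at 5.03 ± 1.75 CPM per kb (SD, n = 8) through Rsph1 at 3.03 ± 1.43, Tmem212 at 2.30 ± 1.41, Dynlrb2 at 1.98 ± 0.975 and Ccdc153 at 1.62 ± 0.960 to Ak7 at 1.13 ± 0.684. Foxj1 stood above Rsph1 by more than the SD of either, and the other neighbours in that order differed by less than their SDs. Dynlrb1, the broadly expressed paralogue of Dynlrb2, stood at 84.0 ± 6.83 CPM per kb (SD, n = 8).

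Foxj1 stood at 12.9 and 15.1 CPM in the PTS + RS libraries, 16.3 and 21.7 in the RS libraries, 13.1 and 7.79 in the RGFP109 libraries and 10.2 and 8.36 in the vehicle libraries. It was highest in RS replicate 2 and lowest in the amygdala-labelled libraries. Rsph1 stood at 2.80 and 2.45 CPM with PTS + RS, 4.08 and 5.61 with RS, 6.33 and 1.63 with RGFP109 and 2.72 and 2.61 with vehicle. Its highest and lowest values were both in the RGFP109 group. Dynlrb2 stood at 0.991 and 1.43 CPM with PTS + RS, 0.716 and 2.14 with RS, 1.46 and 0.653 with RGFP109 and 0.851 and 0.543 with vehicle. With 10 to 34 counts a library, it was the member with the least depth among those present in every library, and its 2 RS libraries lay on both sides of the PTS + RS libraries.

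Ak7 stood at 5.59 and 7.53 CPM with PTS + RS, 5.23 and 8.38 with RS, 6.40 and 2.05 with RGFP109 and 0.0567 and 2.71 with vehicle. Ccdc153 stood at 3.44 and 4.72 CPM with PTS + RS, 4.41 and 5.92 with RS, 4.24 and 1.17 with RGFP109 and 0.0567 and 2.50 with vehicle. Tmem212 stood at 1.69 and 2.09 CPM with PTS + RS, 2.92 and 1.95 with RS, 2.79 and 0.747 with RGFP109 and 0 and 0.977 with vehicle. These 3 genes shared one order of the second table: highest in RGFP109 replicate 1, intermediate in both amygdala-labelled libraries and lowest in vehicle replicate 1, where each was at or under the 3-count limit of 0.170 CPM.

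**Figure D1:**
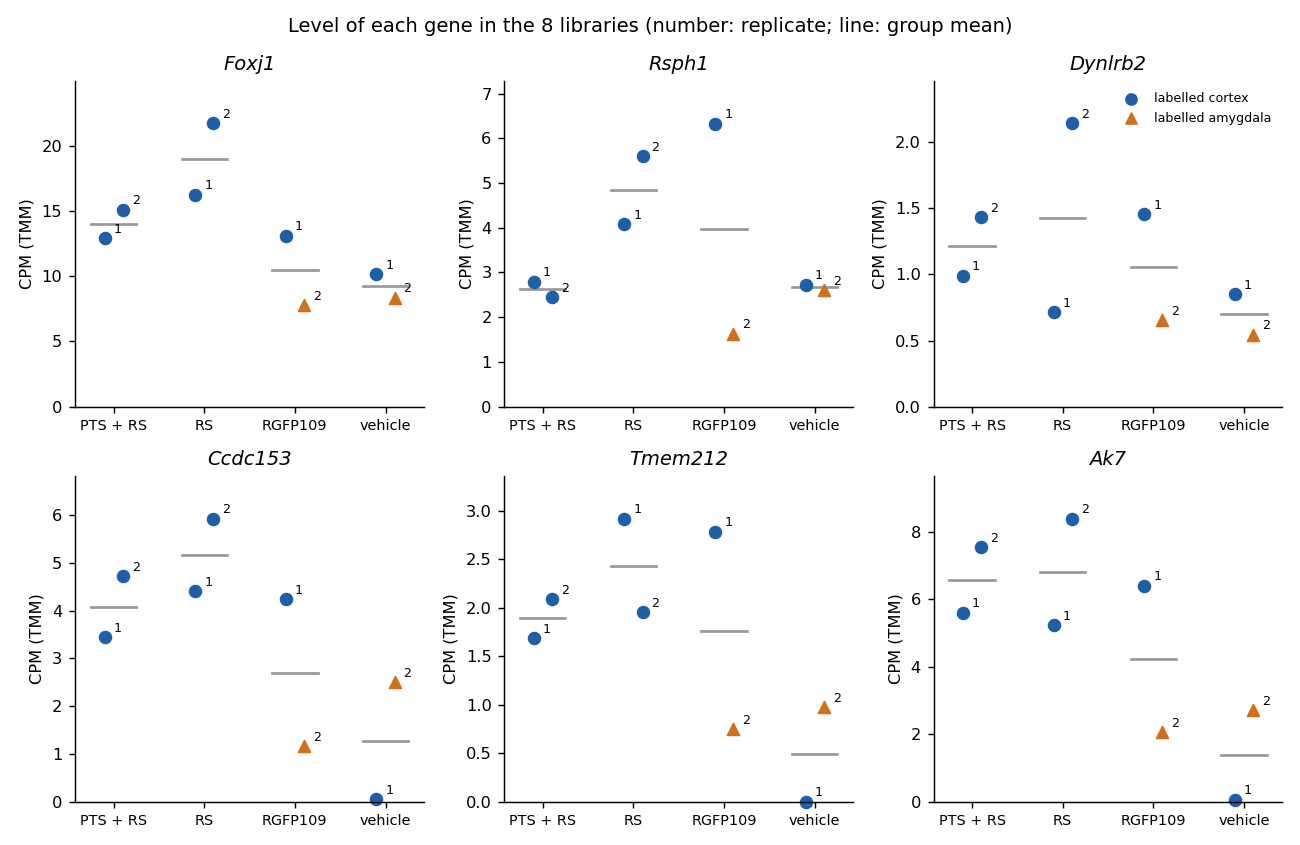
Level of each of the 6 genes in CPM after TMM scaling (y axis, from 0, its own scale for each gene) in the 4 groups (x axis); each point is 1 library with its replicate number, circles are labelled cortex, triangles are labelled amygdala and lines are group means (n = 2). Vehicle replicate 1 lies at 0.0567 CPM or 0 for Ccdc153, Tmem212 and Ak7 but at 10.2 CPM for Foxj1.

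Expressed per 100 counts of Foxj1 in the same library, which removes library size, Ak7 gave 26.3 to 49.8, Ccdc153 gave 14.97 to 32.4 and Tmem212 gave 8.99 to 21.3 in the 7 libraries other than vehicle replicate 1. In vehicle replicate 1 the same ratios were 0.559, 0.559 and 0. Rsph1 gave 16.2 to 48.3 and Dynlrb2 gave 4.41 to 11.1 per 100 Foxj1 counts over all 8 libraries, and vehicle replicate 1 lay inside both ranges at 26.8 and 8.38. The members therefore did not fall together in that library.

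The choroid plexus and the cilia genes were set side by side in each library. Ttr, the transthyretin of the choroid plexus, had 24922 and 242 counts with PTS + RS, 29168 and 53234 with RS, 21258 and 29 with RGFP109 and 33 and 25 with vehicle. The 12 choroid plexus genes summed to between 1580 and 3983 CPM in PTS + RS replicate 1, RS replicates 1 and 2 and RGFP109 replicate 1, and to between 17.7 and 53.4 CPM in the other 4 libraries. Of the 48.2 CPM in vehicle replicate 1, Aqp1 made up 36.6 CPM, its highest value in the 8 libraries. The 6 cilia genes summed to 27.4 to 45.7 CPM in the 4 libraries rich in choroid plexus and to 14.05, 13.8 and 17.7 CPM in RGFP109 replicate 2, vehicle replicate 1 and vehicle replicate 2. PTS + RS replicate 2 had few choroid plexus counts and a cilia sum of 33.3 CPM, inside the range of the rich libraries. It was the only library poor in choroid plexus outside the amygdala label and vehicle replicate 1. The sums therefore did not go together in the first table, and in the second only RGFP109 replicate 1 was rich. Foxj1, Rsph1 and Dynlrb2 alone summed to 13.7 CPM in vehicle replicate 1, above the 10.1 and 11.5 CPM of the amygdala-labelled libraries. The agreement in the second table cannot be told apart from a difference tied to the amygdala label or to vehicle replicate 1 itself. Between 1 and 3 of the 12 choroid plexus genes were at or under 3 counts in each of the 4 poor libraries. Of 8 other ependymal genes, Nnat, which neurons also express, took 78.6% to 90.3% of the sum. The other 7 summed to 38.3 CPM or more in both PTS + RS libraries, both RS libraries and RGFP109 replicate 1, to 41.3 CPM in vehicle replicate 1 and to 24.6 and 28.6 CPM in the amygdala-labelled libraries. The 41.3 CPM of vehicle replicate 1 rested largely on Cd24a, which is also on the neuroblast list. Cd24a stood at 26.8 CPM there against 7.55 to 17.9 CPM elsewhere. Rarres2, Tm4sf1 and Calml4 were lowest of all in that library, Dynlt1f was highest and Hdc lay inside its range elsewhere. The sum of these 7 genes therefore does not place vehicle replicate 1 among the libraries. The 10 genes of meningeal fibroblasts, a covering that can come along with brain surface, summed to between 95.2 and 327 CPM, lowest in PTS + RS replicate 2.

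**Figure D2:**
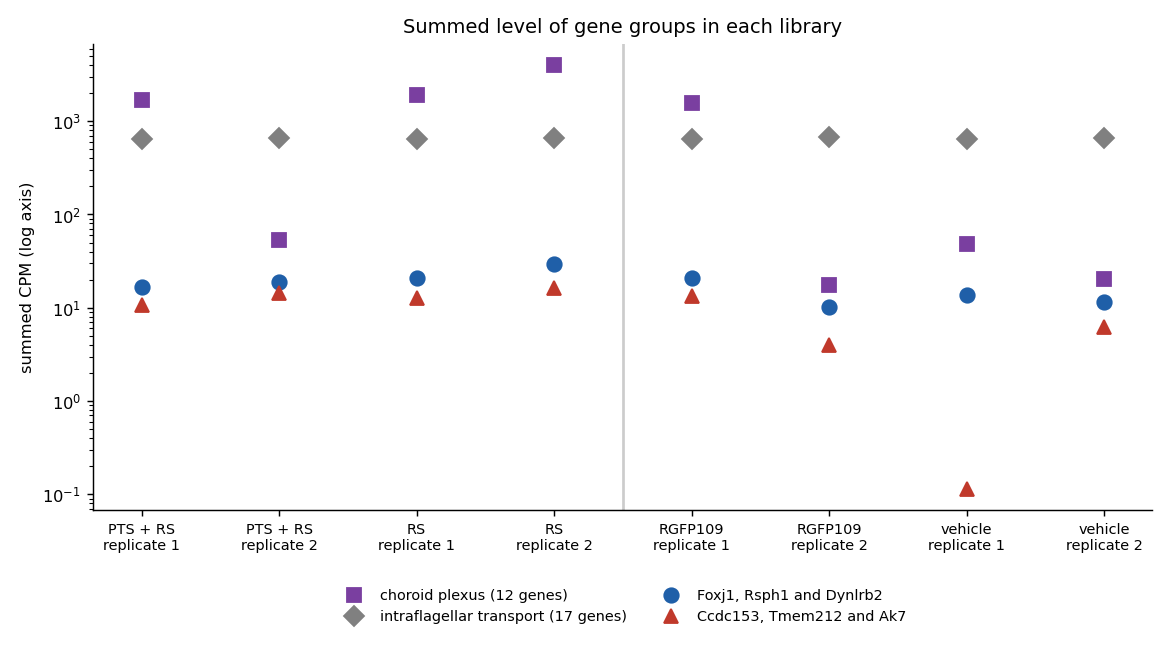
Summed CPM (y axis, log) of 4 gene groups in each of the 8 libraries (x axis); the vertical line parts the 2 separately scaled tables, and each point is 1 library. Ccdc153, Tmem212 and Ak7 sum to 0.113 CPM in vehicle replicate 1 and to 3.97 to 16.3 CPM elsewhere, while Foxj1, Rsph1 and Dynlrb2 stay between 10.1 and 29.5 CPM and the choroid plexus genes fall into a high and a low set.

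The first comparison asked whether stroke added to restraint stress changed the genes in cortex-labelled tissue. None of the 6 passed the threshold, an adjusted p under 0.05 with a change of at least 1 on the log2 scale, against 2.21% of the 17581 genes tested by edgeR's quasi-likelihood test. All 6 fitted values were below 0, with a median log2 fold change of -0.35 against -0.0015 over all genes tested. In bulk tissue, fewer ependymal cells and less RNA per cell cannot be told apart. Both PTS + RS libraries lay below both RS libraries for 2 of the 6, Foxj1 and Rsph1, as was so for 24.5% of all genes tested. Rsph1 gave -0.88 ± 0.27 (SE; edgeR adjusted p = 0.152) and Foxj1 gave -0.44 ± 0.18 (SE; edgeR adjusted p = 0.266), the 2 members with an unadjusted p under 0.05, which 17.9% of all genes tested had. DESeq2 and limma-voom also called 0 of the 6.

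The remaining members moved less than their errors or little more. Tmem212 gave -0.37 ± 0.34 (SE), Ccdc153 -0.34 ± 0.27, Dynlrb2 -0.22 ± 0.56 and Ak7 -0.05 ± 0.28, and their libraries overlapped between the groups. For Dynlrb2 and Ak7 the sign turned when PTS + RS replicate 1 or RS replicate 2 was left out. Glial genes differed between the same libraries: the 8 microglial genes summed to 903 and 762 CPM with PTS + RS against 228 and 205 CPM with RS, and the 8 astrocyte genes to 4177 and 3483 CPM against 1912 and 1863 CPM. The 12 choroid plexus genes, in the same direction as the members, all had fitted values below 0, with a median of -1.81, 0 called by edgeR, DESeq2 or limma-voom and 4 at an unadjusted p under 0.05, whereas edgeR called all 12 lower without PTS + RS replicate 1 and with no filter on low counts. The part of these lists in the values of the cilia genes was not tested.

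A wider list of 83 motile cilia genes was read in the same way. Of its 80 tested genes 27 had fitted values above 0 and 53 below, 0 were called by edgeR, 8 had an unadjusted p under 0.05 (17.9% over all genes tested), and the median was -0.12. DESeq2 and limma-voom called 0 of them. The multiciliation regulators with the largest changes were Gmnc, at -0.83 ± 0.25 (edgeR adjusted p = 0.145), and Trp73, at -0.63 ± 0.18 (edgeR adjusted p = 0.124). Among the dynein arms, the outer arm heavy chain Dnah9 gave -0.55 ± 0.12 (edgeR adjusted p = 0.0664) and Dnah11 -0.57 ± 0.30, the inner arm heavy chains Dnah6 and Dnah7a gave -0.49 ± 0.22 and -0.20 ± 0.31, and the assembly factors Dnaaf1 and Dnaaf2 gave -1.14 ± 0.58 and 0.60 ± 0.58. Cfap221 and Dnajb13, of the central pair and radial spokes, gave 0.68 ± 0.52 and -0.67 ± 0.48, and Zbbx and Mlf1, of the other ciliary genes, gave -1.49 ± 0.60 and -1.11 ± 0.34. The 17 genes of intraflagellar transport, which primary cilia of other brain cells also use, had a median of 0.02 with 0 called by edgeR, DESeq2 or limma-voom and 1 at an unadjusted p under 0.05. Their largest changes were Ift74 at 0.51 ± 0.13 (edgeR adjusted p = 0.0934) and Ift20 at -0.22 ± 0.11.

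The second comparison asked whether RGFP109 changed the genes in PTS + RS mice. None of the 6 was called, and no gene of the 17565 tested was (0.0%), with 88 genes higher and 118 lower at an unadjusted p under 0.05. DESeq2 and limma-voom called 0 genes as well. Each group held 1 cortex-labelled and 1 amygdala-labelled library, and these fits had no term for the label. Their errors therefore include the difference between the labels, and a gene not called is not shown to be unchanged. With the replicate number as a term, edgeR also called 0 genes. The members' fitted log2 fold changes ran from 0.17 ± 0.34 (SE) for Foxj1 to 1.81 ± 1.45 for Tmem212, with a median of 0.82 against -0.016 over all genes tested, and none had an unadjusted p under 0.05, which 1.17% of all genes tested had. Ak7 gave 1.59 ± 1.39, Ccdc153 1.06 ± 1.40, Dynlrb2 0.58 ± 0.64 and Rsph1 0.57 ± 0.70 (edgeR adjusted p = 1.00 for each of the 6). With vehicle replicate 1 left out, the value for Ak7 was 0.62 ± 0.78, for Tmem212 0.82 ± 0.98 and for Ccdc153 0.09 ± 0.86. Without RGFP109 replicate 1, 4 of the 6 turned below 0, Rsph1 at -0.70, Foxj1 at -0.25, Ccdc153 at -0.13 and Dynlrb2 at -0.089, with a median over the 6 of -0.11. Without vehicle replicate 2, Ak7 gave 6.05, Ccdc153 5.40 and Tmem212 8.0, the last set against a library with 0 counts and no bound, and none of the 6 was called in any of these fits.

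Within each replicate number, which here is also a tissue label, the RGFP109 and the vehicle library were set side by side with no test. For replicate number 1, all 6 genes were higher with RGFP109, as were 8476 of the 17565 genes tested. In the same pair 11 of the 12 choroid plexus genes were at least 2-fold higher (median log2 ratio 4.59) and 1, Aqp1, at least 2-fold lower. All 10 neuroblast genes were lower, 8 of them at least 2-fold (median -3.00). The part of these tissues in the ratios of the members was not tested. Ak7 had 101 counts against 1, a ratio of 113 (exact 95% interval 19.8 to 4496), and Ccdc153 had 67 against 1, a ratio of 74.8 (13.0 to 2997). Tmem212 had 44 counts against 0. Taken against 3 counts in the vehicle library, it was 16.4-fold higher, with the counting error of the 44 left out. Rsph1 had 100 counts against 48, a ratio of 2.32 (1.63 to 3.35), Foxj1 207 against 179, a ratio of 1.29 (1.05 to 1.59), and Dynlrb2 23 against 15, a ratio of 1.71 (0.855 to 3.53). Hence the interval for Dynlrb2 held a ratio of 1, and those of the other 4 genes with an interval did not. In these 2 libraries 8.03% of the 17565 genes were at least 2-fold higher with RGFP109.

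For replicate number 2 the picture was different, with 5 of the 6 lower with RGFP109, as were 8855 of the 17565 genes tested. Ccdc153 had 25 counts against 46, a ratio of 0.467 (exact 95% interval 0.275 to 0.776), and Rsph1 had 35 against 48, a ratio of 0.627 (0.394 to 0.989). Tmem212, Ak7 and Foxj1 had ratios of 0.764, 0.756 and 0.932, and Dynlrb2 of 1.20, each with an interval that held 1. The median log2 ratio of the 6 was 2.89 for replicate number 1 and -0.37 for replicate number 2.

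The other motile cilia genes gave the same contrast between the 2 replicate numbers. For replicate number 1, 72 of the 83 were higher with RGFP109 and 10 lower, and 43 (51.8%) were at least 2-fold higher, with a median log2 ratio of 1.03. For replicate number 2, 38 were higher and 44 lower, and the median was -0.04. None was at least 2-fold higher in that pair, where 1.38% of the 17565 genes tested were, against 8.03% of them for replicate number 1. Intraflagellar transport genes had medians of 0.01 and 0.02. In the fit over all 4 libraries 71 of the 83 genes were tested, with 0 called by edgeR, DESeq2 or limma-voom, 2 (Rfx3 and Enkur) at an unadjusted p under 0.05 and a median of 0.44. The regulators Gmnc and Myb gave 2.30 ± 0.95 and 1.20 ± 0.56. Spag16 and Rsph4a, of the central pair and radial spoke head, gave 1.83 ± 1.14 and 1.35 ± 0.76. The dynein heavy chains Dnah6, Dnah12 and Dnah9 gave 2.00 ± 1.01, 1.33 ± 1.21 and 1.98 ± 0.94, whereas Dnah11 gave -3.33 ± 1.49. The assembly factors Zmynd10 and Dnaaf2 gave 0.92 ± 0.54 and 0.35 ± 0.63, and Cfap52 and Spata18 gave 2.49 ± 1.21 and 1.92 ± 1.57. Of intraflagellar transport, with 0 called and 0 at an unadjusted p under 0.05, Wdr60 gave -0.43 ± 0.27 and Ift74 0.40 ± 0.19.

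**Figure D3:**
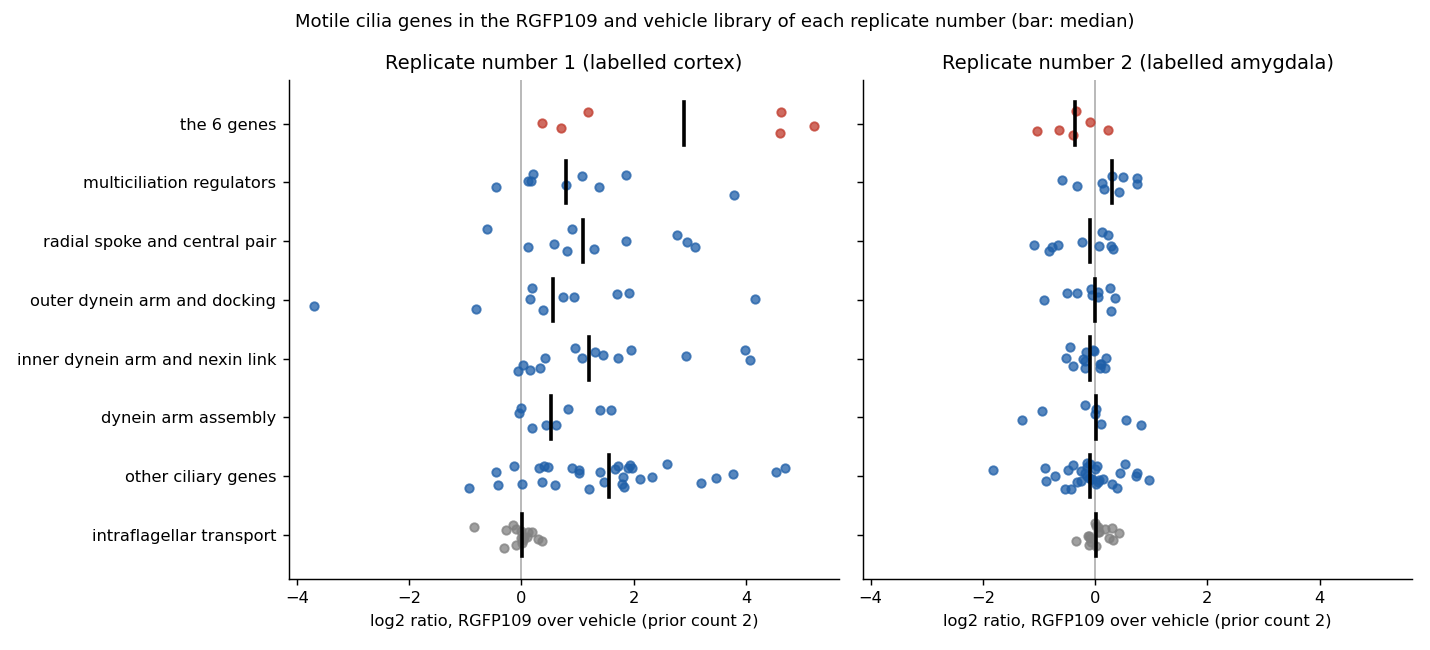
Log2 ratio of the RGFP109 over the vehicle library (x axis, prior count 2) for each replicate number (panels), by gene list (y axis); each point is 1 gene, spread vertically at random, and bars are medians. The 6 genes have a median of 2.89 for replicate number 1 and -0.37 for replicate number 2, while intraflagellar transport genes have medians of 0.01 and 0.02.

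Vehicle replicate 1 did not lack all cilia genes alike. Of the 83, 9 were at or under 3 counts in it and above 3 counts in each of the other 7 libraries: Armc4, Dnah12, Cfap52, Tctex1d4, Sntn, Ak9, Iqca, Ccdc180 and Spata18. The share of all genes with this pattern was not counted, so the number is a description only. Tctex1d4 and Sntn also came near that limit elsewhere, with lowest counts of 4 and 5. Spata18 had 0 counts against 9 to 60, Cfap52 1 against 15 to 68, and Dnah12, an inner arm heavy chain, 1 against 28 to 55. Gmnc, which starts the programme, had 4 counts against 18 to 138. Trp73, a transcription factor of multiciliated cells, had 83 counts, inside its range of 10 to 153 elsewhere. Dnah11, an outer arm heavy chain, had 531 counts against 20 to 108 elsewhere. These genes were named after their values were seen. Of the 83 genes, 67 had more than 3 counts in all 8 libraries. Some of them stood high in every library, such as Dnal1 at 132 to 158 CPM and Rfx3 at 53.9 to 149 CPM. More than 3 counts of such a gene therefore does not by itself mark ventricular wall. The members did not give 1 reading of vehicle replicate 1 either. Foxj1, Rsph1 and Dynlrb2 had 179, 48 and 15 counts there, and Ccdc153, Tmem212 and Ak7 had 1, 0 and 1.

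The third comparison set the 2 amygdala-labelled libraries against the 2 cortex-labelled libraries of the second table, with treatment as a covariate. None of the 6 was called by edgeR, DESeq2 or limma-voom, and edgeR called 0.0% of 17565 genes, although 1069 were higher and 538 lower at an unadjusted p under 0.05. The fit gave -1.01 ± 0.58 (SE) for Rsph1, -0.91 ± 0.53 for Dynlrb2 and -0.52 ± 0.27 for Foxj1, but 0.70 ± 1.67 for Ak7, 0.62 ± 1.73 for Ccdc153 and 0.20 ± 1.57 for Tmem212. No member had an unadjusted p under 0.05, which 9.15% of all genes tested had. For Ak7, Ccdc153 and Tmem212 the cortex-labelled libraries lay on both sides of the amygdala-labelled ones. Of the wider list, 71 genes were tested, 31 with fitted values above 0 and 40 below, with a median of -0.09. EdgeR and limma-voom called 0 of them and DESeq2 called 2, Dnah11 and Trp73, where it called 1.19% of all genes, and 9 had an unadjusted p under 0.05 in the edgeR fit. Among the regulators Trp73 gave -2.74 ± 0.43 (edgeR adjusted p = 0.340) and Ccdc78 -1.26 ± 0.43. Spag16 and Hydin, of the central pair, gave -1.03 ± 1.21 and -0.81 ± 0.37. The outer arm genes Dnah11 and Ccdc114 gave -3.09 ± 0.94 and -1.04 ± 0.32, the inner arm heavy chains Dnah2 and Dnah3 gave -1.02 ± 0.27 and 0.98 ± 0.63, and the assembly factors Lrrc6 and Dnaaf3 gave 0.81 ± 0.34 and -0.65 ± 0.87. Ccdc146 and Tekt4 gave -1.78 ± 0.57 and 1.73 ± 0.51. Of the 17 intraflagellar transport genes, 0 were called and 1 had an unadjusted p under 0.05, and Dync2h1 and Kif3a, a dynein heavy chain and a kinesin of that transport, gave 0.65 ± 0.19 and 0.26 ± 0.20.

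The result turned on which cortex-labelled library was kept. Without vehicle replicate 1, all 6 were lower in the amygdala-labelled libraries and 4 were called, against 2.13% of 18613 genes called lower. Tmem212 fell by 1.68 ± 0.50 on the log2 scale (edgeR adjusted p = 0.0150), Rsph1 by 1.57 ± 0.33 (edgeR adjusted p = 0.000415), Ak7 by 1.41 ± 0.31 (edgeR adjusted p = 0.000924) and Ccdc153 by 1.21 ± 0.39 (edgeR adjusted p = 0.0295). Foxj1 gave -0.69 ± 0.22 (edgeR adjusted p = 0.0298), short of the fold limit, and Dynlrb2 gave -1.26 ± 0.66 (edgeR adjusted p = 0.243). Without RGFP109 replicate 1 in its place, Ak7, Ccdc153 and Tmem212 were called higher in the amygdala-labelled libraries, against 7.45% of 18744 genes called higher, Ak7 by 5.24 ± 0.88 (edgeR adjusted p = 9.15e-07). Each of these fits dropped the treatment term and left 1 cortex-labelled library, which was assumed to vary like the others.

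In the fit without vehicle replicate 1, 19 of 81 tested genes of the wider list were called lower and 1, Tekt4, higher (2.13% and 4.0% of all genes tested). Trp73 gave -2.76 ± 0.42 (edgeR adjusted p = 2.28e-06), Spag16 -2.47 ± 0.56, Spata18 -2.21 ± 0.53, Dnah6 -1.68 ± 0.32 and Dnah9 -1.64 ± 0.21. In the same fit all 12 choroid plexus genes were called lower and all 10 striatal genes higher. The part of these tissues in the members' values was not tested.

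**Figure D4:**
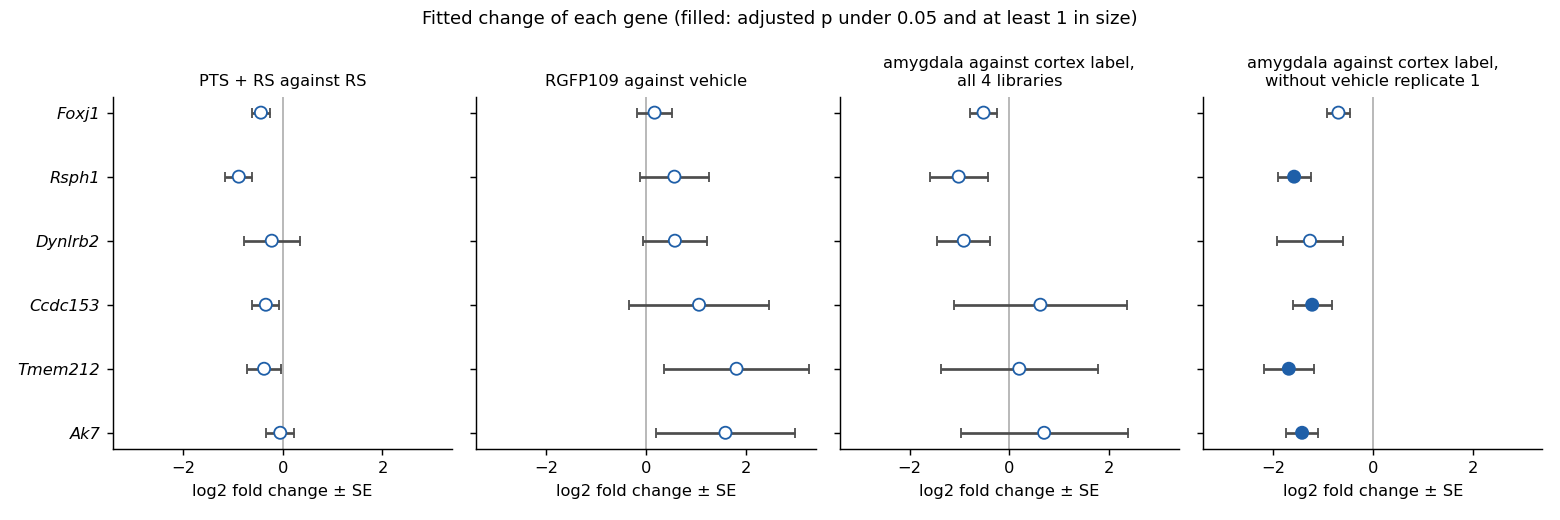
Fitted log2 fold change with its SE (x axis) of each of the 6 genes (y axis) in the 3 comparisons, and in the third also without vehicle replicate 1; filled points passed the threshold. Points for Ccdc153, Tmem212 and Ak7 lie above 0 in the third panel and between -1.68 and -1.21 in the fourth.

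Likeness to the members was described by Pearson's r over the 8 libraries between each gene and the mean log2 CPM of the 6, centred within each table, among 16947 genes tested in both tables. The 10 genes most alike were R3hdm4, Shf, Orai3, Plekhg5, Plxna1, Sema4f, Trpc6, Ly6h, Palmd and Nt5dc3, with r from 0.983 to 0.991, and none was on the cilia lists. Among the top 50, 4 were on the lists. The 71 motile cilia genes compared had a median r of 0.71 against -0.04 over all genes, the amygdala genes 0.74, the choroid plexus genes 0.57 and the neuroblast genes -0.81. The members themselves had r of 0.96 for Ccdc153, 0.95 for Ak7 and Tmem212, 0.59 for Rsph1, 0.45 for Foxj1 and 0.42 for Dynlrb2. Each member is part of the mean it was set against, which raises its r. All of these values share the same libraries and weigh the low value of vehicle replicate 1, and without that library 0 of the top 50 were on the cilia lists while their median r was 0.74.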

How the data were processed

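RNA-seq libraries of 8 mouse brain samples were compared in 4 groups of 2. By the paper's methods and the submitters' processing notes, the authors aligned reads to GRCm38 with STAR 2.4.0 and counted them per gene with HTSeq 0.6.1, and the deposited counts are unnormalized. The authors also deposited FPKM, used here as an alternative scale, and log2 fold changes with p-values, which were not used. A further 8 columns of values per library, a normalized signal, were not used.

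Genes were filtered with filterByExpr, scaled by TMM within each table and compared by edgeR's quasi-likelihood test (edgeR 4.0.16, R 4.3.3) with Benjamini-Hochberg adjustment over all genes tested, which was tested on simulated data. The simulation had 2 libraries a group and less spread between libraries than the second table. It did not cover fits with a library left out. A gene was called at an adjusted p under 0.05 with a change of at least 1 on the log2 scale. Ratios of single libraries used a prior count of 2, and counting intervals were exact binomial ones (scipy 1.17.1). DESeq2 1.42.0, limma-voom (limma 3.58.1), other scaling, no filter, a replicate block and leaving out each library were the alternatives. Depth ran from 15902013 to 21712033 counts.

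The genes and lists were chosen with earlier results of these data known. All 6 members were named with their values, as were the 2 largest changes in size of each cilia list in each fit over all libraries, examples among these in the fit without vehicle replicate 1, and the 10 genes most alike. Promoters were found for 4 of the 6 members in the RefSeq table. Same-numbered libraries deviated from their group means with r = 0.04 in PTS + RS and RS, where they share only a number, and r = 0.30 in RGFP109 and vehicle, where the number is the tissue label.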

Additional observations from a re-analysis of the deposited data

Results flagged for a closer look

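For 5 of the 6 genes the log2 ratio of RGFP109 over vehicle had opposite signs in the 2 replicate numbers, which carry different tissue labels. The ratio of replicate number 1 exceeded that of replicate number 2 by 5.66 for Ccdc153, 5.59 for Ak7, 4.95 for Tmem212, 1.82 for Rsph1 and 0.46 for Foxj1. Each ratio rests on 1 library of each group, and the difference between the replicate numbers was not tested. For replicate number 2 the counting intervals of Foxj1, Tmem212 and Ak7 held a ratio of 1, so their signs there are not settled. Those of Ccdc153 and Rsph1 did not hold it. The share of all genes with opposite signs was not counted, so the number of members is a description only.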

How the results depend on the processing

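With the replicate block the edgeR counts of called genes were 475 between PTS + RS and RS, against 389 without it, and 0 between RGFP109 and vehicle, the members' medians were -0.35 and 0.99, and 0 members and 0 genes of the motile cilia list were called in either, as without it. For PTS + RS against RS, 759 genes were called with no filter on low counts and 624 with no fold limit, against 389. For the tissue labels DESeq2 called 209 genes with 2 of the motile cilia list and the fit with no filter 240 with 1 (Trp73) of that list, against 0 and 0. Signs turned with limma-voom for Tmem212 (-0.11) and Ak7 (-0.12), and with no treatment term for Ccdc153 (-0.22), Tmem212 (-0.67) and Ak7 (-0.43). For replicate number 1 a prior count of 0.5, chosen after seeing the data, gave a members' median of 3.42 against 2.89.

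Leaving out each library in turn gave, for PTS + RS against RS, 323 to 740 called genes, the highest without PTS + RS replicate 2, 0 to 2 of the motile cilia list, 2 (Gmnc and Lrriq1) without PTS + RS replicate 1, and log2 fold changes of -0.36 to 0.32 for Ak7 and -0.82 to 0.75 for Dynlrb2. For RGFP109 against vehicle it gave 0 to 93 called genes, a members' median of -0.11 to 2.97, and values of 0.56 to 6.05 for Ak7, 0.60 to 8.0 for Tmem212, -0.25 to 0.50 for Foxj1, -0.13 to 5.40 for Ccdc153, -0.70 to 1.25 for Rsph1 and -0.089 to 1.06 for Dynlrb2, with the highest count and median without vehicle replicate 2 and the lowest median without RGFP109 replicate 1. For the tissue labels it gave 0 to 2512 called genes, 0 to 4 members, 0 to 29 of the motile cilia list, a members' median of -1.34 to 2.26, and values of -1.41 to 5.24 for Ak7, -1.21 to 4.85 for Ccdc153 and -1.68 to 7.05 for Tmem212, with the highest counts of genes and of the list and the highest median without RGFP109 replicate 1. The value for Tmem212 at that end is set against a library with 0 counts and is no bound. The cause of these changes was not tested. The summed level of the members in vehicle replicate 1 was 0.470 of the mean of the other 7 libraries, 0.480 in deposited FPKM and 0.491 by library totals. Members with 10 to 100 counts limit the precision of single-library ratios.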
